A study of Mus musculus with 54 samples.

Results

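Sons of mothers given the higher of 2 drug mixtures were compared with sons of mothers given the lower one, by messenger RNA sequencing of the whole adult testis. The members are all 3 testis libraries (A, B and C) labelled as second generation with a control father and a dose 2 mother, and all 3 with a control father and a dose 1 mother, which makes 6 of the 54 libraries in the study. All genes in the count table that passed a low-count filter were tested, 19241 in number. The mothers belonged to the first generation (F1), which met the mixture from 8.5 days post-coitum in the drinking water of the pregnant dam and then in its own water until it was killed. Dose 2 held 113 ng/L ibuprofen (IBU), 225 ng/L 2-hydroxyibuprofen (2hIBU), 112 ng/L diclofenac (DCF) and 45 ng/L 17a ethinyl-estradiol (EE2). Dose 1 held 11.3 ng/L IBU, 90 ng/L 2hIBU, 22.5 ng/L DCF and 2.25 ng/L EE2. The ratio of the doses differs from compound to compound, so dose 1 is not a simple dilution of dose 2. The sons themselves (F2) are labelled as untreated, and males were sampled at 10 weeks. Sons of control parents, whose water held 0.001% ethanol, do not enter the difference. Their values are given only for orientation. The strain is not given in the sources used here, and the litters of A, B and C are not stated. The p-values therefore rest on the spread among samples, which may be partly technical.

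Ibuprofen and diclofenac block the cyclooxygenases, the enzymes that start prostaglandin synthesis, and 2-hydroxyibuprofen is a metabolite of ibuprofen. Ethinyl-estradiol is a synthetic oestrogen that activates oestrogen receptors. In the adult testis germ cells pass from spermatogonia through meiosis to spermatids inside tubules lined by Sertoli cells, while Leydig cells between the tubules make testosterone and lie next to resident macrophages. An F2 animal of an exposed F1 mother grew from an oocyte that had itself been present in that mother during her exposure. The F1 is described as drinking the mixture until it was killed, so exposure before and during the pregnancy cannot be told apart here. F2 animals of exposed fathers had control mothers, unless both parents were exposed.

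The 6 libraries held 34.8 to 41.5 M counts. Marker genes of germ cells were abundant in all of them: the summed level of the elongating spermatid list was 28800 to 30810 CPM (counts scaled to library size) in sons of dose 2 mothers and 30680 to 32500 CPM in sons of dose 1 mothers. A pair of libraries stood apart from the others of their own group. Mother dose 2 A differed from B and C by a root mean square of 0.502 and 0.486 on the log2 CPM scale, against 0.33 between B and C. Mother dose 1 B differed from A and C by 0.48 and 0.525, against 0.319 between A and C. The distance between mother dose 2 A and mother dose 1 A (0.495) was thus no larger than that between some libraries of the same group. The dynein gene Dnah8 stood at 5791 CPM in mother dose 2 A, and at 1165 and 1476 CPM in B and C. Results are therefore also given without mother dose 2 A and mother dose 1 B, a setting chosen after seeing the data.

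Few genes passed the test between the doses. Of 19241 genes, 46 passed at an adjusted p under 0.05 by edgeR's quasi-likelihood test with Benjamini-Hochberg adjustment (0.239% of the genes tested), 24 higher in sons of dose 2 mothers (0.125%) and 22 lower (0.114%). The genes that rose included latexin (Lxn), the metalloprotease Ecel1, the adhesion molecule gene Ceacam10 and the translation factor gene Abcf1. Those that fell included the calcium channel gene Cacna1e, the alkaline phosphatases Akp3 and Alpi, the apolipoprotein gene Apoe and the macrophage receptor gene Csf1r. Of the 46, 21 differed at least 2-fold (11 higher, 10 lower), and 9 had a mean level under 1 CPM. By annotation 38 are protein-coding and 7 are long non-coding RNAs, and 12 lie on chromosome 1 (26.1%, against 5.81% of the tested genes with a RefSeq position). In all 46 the libraries of the 2 groups did not overlap, but so were 4923 of the 19241 genes (25.6%), and 2594 genes had an unadjusted p under 0.05. The median log2 fold change of all genes tested was 0.01.

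**Figure D1:**
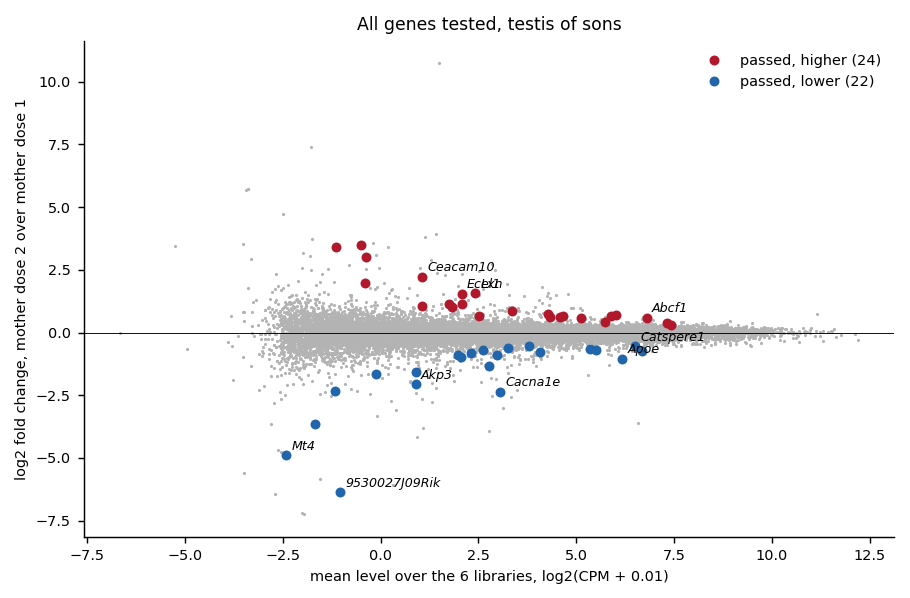
Each point is a gene tested in the testis of sons, with its mean level over the 6 libraries on the horizontal axis (log2 of CPM plus 0.01) and the log2 fold change of mother dose 2 over mother dose 1 on the vertical axis. The 24 genes that passed and were higher are in red and the 22 that passed and were lower in blue, and grey points with larger changes than these did not pass.

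The number of genes passing depended on which libraries entered. Leaving out dose 2 A gave 98 genes, dose 2 B gave 13 and dose 2 C gave 21, of which 29, 12 and 20 were among the 46. Leaving out dose 1 A gave 9 genes, dose 1 B gave 77 and dose 1 C gave 15, of which 9, 30 and 15 were among the 46. Without mother dose 2 A and mother dose 1 B together, 159 genes passed (75 higher, 84 lower), 26 of them among the 46. With the spread estimated from only the 6 libraries compared, 346 of 18587 genes passed (1.86%), 101 higher (0.543%) and 245 lower (1.32%), and 41 of the 46 were among them. The 46 genes had the same sign in all of these fits, apart from Lyrm7os, which had no value in the fit of the 6 libraries. As the groups did not overlap in any of the 46, leaving out libraries could hardly reverse a sign. Of the 46, 5 passed whichever of the 6 libraries was left out, namely Lxn, Abcf1, Tada1, Uck2 and Igfbp7.

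Among genes that rose, Lxn encodes latexin, an inhibitor of carboxypeptidases. It stood at 7.13, 8.21 and 8.66 CPM in libraries A, B and C of mother dose 2, against 2.998, 2.71 and 2.39 CPM in those of mother dose 1. Every library of the first group thus lay above every library of the second, and sons of control parents lay between them at 5.53 ± 1.28 CPM (SD, n = 3). The level was 2.96-fold higher with mother dose 2 (log2 1.57 ± 0.17 SE, adjusted p = 0.000522 by edgeR). Ecel1, a membrane metalloprotease of the neprilysin family known from neurons, had 6.13, 6.79 and 5.80 CPM with mother dose 2 and 2.12, 2.01 and 2.28 CPM with mother dose 1. It was 2.92-fold higher (log2 1.54 ± 0.24, adjusted p = 0.00753 by edgeR), with a spread inside each group far below the gap between them. Ceacam10 belongs to the carcinoembryonic antigen family of adhesion proteins. Its level was 4.84, 2.46 and 2.96 CPM with mother dose 2, against 0.537, 0.876 and 0.768 CPM with mother dose 1. That is a 4.69-fold difference (log2 2.23 ± 0.36, adjusted p = 0.0105 by edgeR), and here sons of control parents (3.49 ± 0.252 CPM) were at the level of mother dose 2, not between the groups.

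Other genes rose by less than 2-fold. Abcf1, an ATPase of the ABC family that acts in the initiation of translation, had 124, 141 and 136 CPM with mother dose 2 and 87.8, 82.6 and 95.9 CPM with mother dose 1. It was 1.5-fold higher (log2 0.59 ± 0.07, adjusted p = 0.00173 by edgeR), and sons of control parents averaged 115 ± 6.62 CPM. Tada1, a subunit of a histone acetyltransferase complex of the SAGA type, had 21.0, 26.7 and 26.0 CPM, against 14.3, 15.7 and 13.6 CPM with mother dose 1. Uck2, a kinase that salvages uridine and cytidine, had 67.1, 88.6 and 86.1 CPM, against 49.3, 50.1 and 48.0 CPM with mother dose 1. In both genes mother dose 2 A was the lowest library of its group and still lay above all of mother dose 1, and both passed (log2 0.76 ± 0.11 and 0.71 ± 0.11, adjusted p = 0.00655 and 0.00753 by edgeR). Dhx40, a helicase of the DEAH family, and Dis3l2, an exoribonuclease that degrades uridylated RNAs, were higher by less (log2 0.40 ± 0.06 and 0.41 ± 0.08, adjusted p = 0.0111 and 0.0322 by edgeR). Glb1l, a relative of beta-galactosidase, had 193, 189 and 188 CPM with mother dose 2, against 151, 149 and 158 CPM with mother dose 1 (log2 0.32 ± 0.06, adjusted p = 0.0322 by edgeR), and part of its transcript matches Gm27943.

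Adamtsl5, a secreted relative of the ADAMTS proteases, had 4.89, 6.92 and 5.80 CPM with mother dose 2, against 2.29, 3.20 and 2.47 CPM with mother dose 1. Ccr4, a chemokine receptor of T cells, had 4.98, 5.20 and 3.55 CPM, against 2.38, 2.18 and 1.73 CPM with mother dose 1. Adamtsl5 was 2.21-fold and Ccr4 2.19-fold higher (adjusted p = 0.0269 and 0.0373 by edgeR), and in neither did the groups overlap. Carmil1, a regulator of actin capping protein, averaged 72.1 ± 6.21 CPM with mother dose 2 and 45.9 ± 3.02 CPM with mother dose 1 (SD, n = 3 each). Lims2, an adaptor of focal adhesions, averaged 30.8 ± 2.56 CPM with mother dose 2 and 19.6 ± 1.35 CPM with mother dose 1. Thsd7a, a membrane protein with thrombospondin repeats, averaged 7.02 ± 0.132 CPM with mother dose 2 and 4.47 ± 0.399 CPM with mother dose 1. All 3 genes were 1.57-fold higher (adjusted p = 0.0327, 0.0211 and 0.0134 by edgeR). Pkd2l2, a channel of the polycystin family, Nt5dc3 and the zinc finger gene Zfp944 were 1.47-fold, 1.55-fold and 1.52-fold higher. Nt5dc3 shares 1229 bases at 100% identity with Gm49358 and Zfp944 shares 209 bases with Zfp942, so their counts are uncertain. The antisense gene Fhitos was 2.04-fold higher (adjusted p = 0.0373 by edgeR). It is uncertain, since the strand setting of the counting is not given in the sources used here and reads of Fhit may be counted with it.

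Some of the genes that rose were close to absent with mother dose 1. Nipal1, a magnesium transporter gene, had 0.562, 1.16 and 0.740 CPM with mother dose 2 and 0.0566, 0.0848 and 0.0823 CPM with mother dose 1. Fcamr, a receptor for the Fc part of immunoglobulins A and M, had 0.562, 1.48 and 2.07 CPM, against 0.170, 0.0565 and 0.274 CPM with mother dose 1. At these levels the test rests on few reads per library, and the folds (10.5 and 8.03) are imprecise. The unnamed transcript LOC118027456 had 60, 47 and 46 counts with mother dose 2 and 1, 11 and 0 counts with mother dose 1. Apol7e, of the apolipoprotein L family (log2 1.96 ± 0.37), and 4933409F18Rik (log2 0.87 ± 0.17) complete the genes that rose, with Gm30400 below. Apol7e matches Apol7b over all 2208 bases of its transcript at 99.32% identity, so its counts cannot be assigned to either gene.

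**Figure D2:**
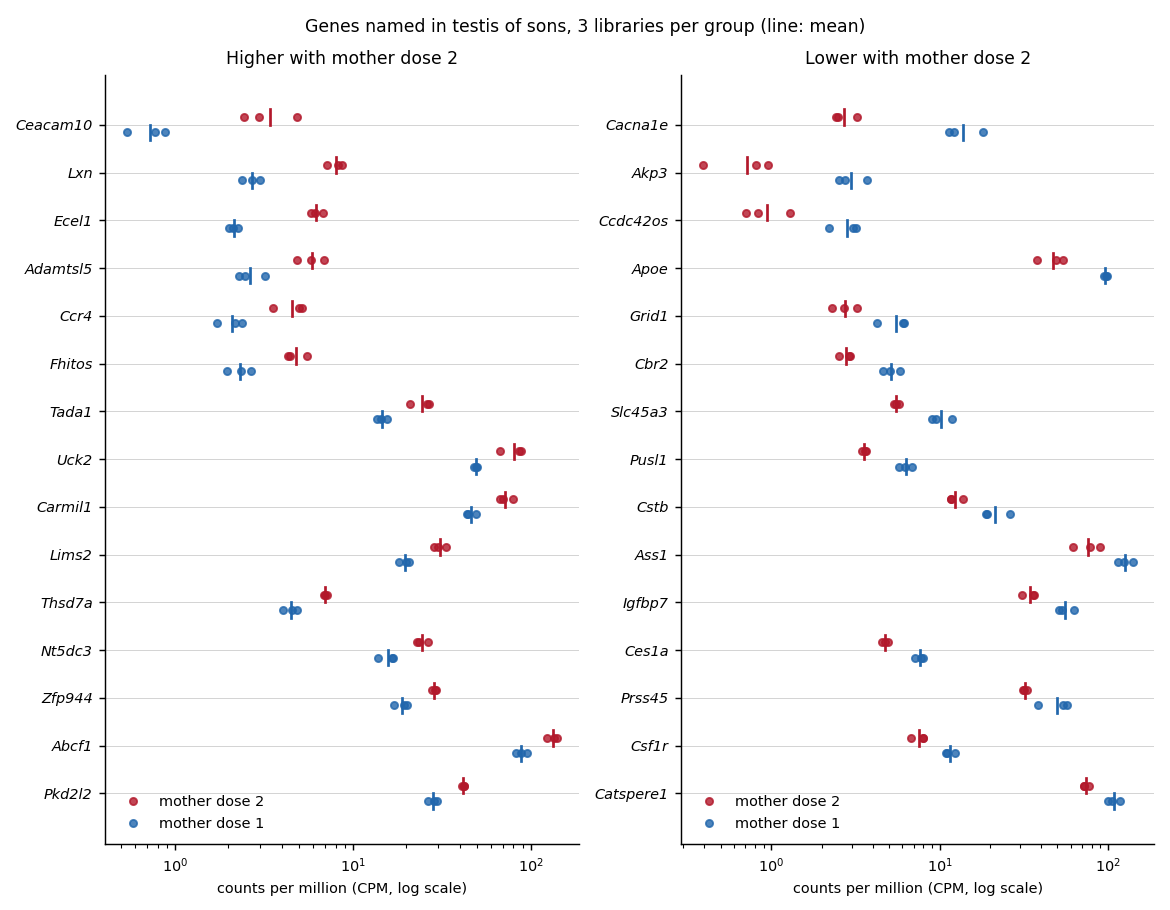
Level in CPM (horizontal axis, log scale) of the 15 genes with the largest rise and the 15 with the largest fall among those that qualified for naming, with 1 point per library and a line at the mean of 3. Red points are sons of dose 2 mothers and blue points sons of dose 1 mothers, and in no gene do the 2 colours overlap.

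Among genes that fell, Cacna1e encodes the pore of the R-type voltage-gated calcium channel. It stood at 2.42, 3.22 and 2.49 CPM with mother dose 2 and at 11.3, 18.1 and 12.1 CPM with mother dose 1. The level was 5.11-fold lower (log2 -2.35 ± 0.41, adjusted p = 0.0322 by edgeR). Sons of control parents were spread over the range of both groups (9.49, 3.22 and 12.0 CPM in A, B and C), so they held both levels. The Cacna1e transcript shares stretches with 4 other genes. The longest is 190 bases with Zfp488, in a transcript of 6765 bases, so part of its counts is uncertain. Grid1, a glutamate receptor subunit of the delta class, had 2.30, 2.72 and 3.23 CPM, against 6.14, 4.27 and 6.04 CPM with mother dose 1 and was 1.99-fold lower (adjusted p = 0.0249 by edgeR).

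The intestinal-type alkaline phosphatase genes Akp3 and Alpi lie next to each other and both fell. Akp3 had 0.391, 0.951 and 0.814 CPM with mother dose 2, against 3.71, 2.52 and 2.74 CPM with mother dose 1. Alpi had 0.415, 0.343 and 0.567 CPM, against 1.64, 1.10 and 1.43 CPM with mother dose 1. They were 4.16-fold lower (log2 -2.06 ± 0.33, adjusted p = 0.0111 by edgeR) and 3.12-fold lower (log2 -1.64 ± 0.33, adjusted p = 0.0373 by edgeR). Their transcripts share no stretch of 100 bases at 98% identity. Shorter shared stretches were not searched.

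Some genes of metabolism were also lower. Apoe, the lipid-carrying apolipoprotein made by macrophages among other cells, had 37.96, 48.9 and 53.9 CPM with mother dose 2 and 98.4, 94.3 and 97.6 CPM with mother dose 1. Its level was 2.06-fold lower (log2 -1.04 ± 0.20, adjusted p = 0.0396 by edgeR), and sons of control parents averaged 83.9 ± 7.81 CPM. Ass1, argininosuccinate synthase of the arginine pathway, had 61.7, 90.4 and 77.9 CPM, against 124, 141 and 115 CPM with mother dose 1 (log2 -0.72 ± 0.12, adjusted p = 0.0118 by edgeR). It shares 1240 bases at 99.52% identity with Gm5424, so its counts are uncertain. The carbonyl reductase gene Cbr2 (log2 -0.88 ± 0.16), the sugar transporter gene Slc45a3 (log2 -0.88 ± 0.16) and the carboxylesterase gene Ces1a (log2 -0.69 ± 0.13) passed as well (adjusted p = 0.0208, 0.0225 and 0.0327 by edgeR). Cbr2 and Slc45a3 also share stretches with another gene (225 bases with Gm11771 and 488 with Gm29103). The means of sons of control parents lay between the groups for Akp3, Apoe and Ces1a, and above both for Ass1, Cbr2, Slc45a3 and Alpi. In the latter genes the libraries of control parents overlapped those of mother dose 1. For Cbr2 the means were 5.23 ± 0.685 CPM with control parents and 5.14 ± 0.612 CPM with mother dose 1 (SD, n = 3 each).

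Further genes that fell encode proteins of several kinds. Igfbp7, a secreted binding protein of the insulin-like growth factor system, had 30.9, 36.1 and 36.4 CPM with mother dose 2, against 53.2, 62.5 and 51.3 CPM with mother dose 1 (log2 -0.69 ± 0.10, adjusted p = 0.00753 by edgeR). The cathepsin inhibitor gene Cstb had 11.7, 11.7 and 13.8 CPM, against 19.1, 26.4 and 18.9 CPM with mother dose 1 (log2 -0.79 ± 0.13, adjusted p = 0.0139 by edgeR). Prss45, of the serine protease family, had 33.1, 31.5 and 31.8 CPM, against 54.1, 38.7 and 57.4 CPM with mother dose 1. In Prss45 the dose 1 libraries varied most, with B nearest to the other group, and the difference just passed (log2 -0.64 ± 0.13, adjusted p = 0.0463 by edgeR). Catspere1, a subunit of the calcium channel of the sperm tail, had 77.4, 72.1 and 72.3 CPM, against 106, 117 and 101 CPM with mother dose 1. It was 1.46-fold lower (log2 -0.55 ± 0.10, adjusted p = 0.021 by edgeR), with 735 bases at 98.23% identity to Catspere2. Pusl1, a gene of the pseudouridine synthase family, and Mrpl28, of the mitochondrial ribosome, were 1.76-fold and 1.43-fold lower (adjusted p = 0.029 and 0.0373 by edgeR).

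A few genes that fell were at or near 0 with mother dose 2. Mt4, a metallothionein known from squamous epithelia, had 1, 0 and 0 counts with mother dose 2 and 13, 14 and 10 counts with mother dose 1. The X-linked non-coding RNA 9530027J09Rik had 1, 0 and 0 counts, against 35, 46 and 21 counts with mother dose 1. Tnni1, the troponin I of slow skeletal muscle, had 0.147, 0.106 and 0.173 CPM, against 0.622, 0.679 and 0.906 CPM with mother dose 1. No fold is given for the first pair of genes because it would rest on 1 count. The antisense genes Ccdc42os (2.97-fold lower) and Lyrm7os are uncertain for the reason given for Fhitos. Over all 46 genes the mean of sons of control parents lay between the 2 groups for 38, above both for 7 and below both for 1. Because the 46 were chosen for a gap between the 2 groups, a control mean inside it says little. The share over all genes tested was not counted.

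Some of the genes that passed lay close together in the genome. With genes put in RefSeq order, 10 of the 45 that could be placed (22.2%) had another gene that passed within 10 tested genes on either side, against 4.14% of all 19168 placed genes. The largest such run was on chromosome 1 and held Dis3l2 and Ecel1, which rose, with Alpi and Akp3, which fell, between them. Tada1 and Uck2, also on chromosome 1, both rose. Lxn neighboured 4931440P22Rik, which fell (log2 -1.33 ± 0.20), and Cstb neighboured Gm30400, which rose (log2 1.05 ± 0.16). Genes in a run thus did not share a direction in 3 of the 4 runs. The promoters of the run of 4 genes on chromosome 1 are shown as the largest run, with that of Lxn as the gene with the smallest p. Each runs from 250 bases before to 50 after the start in RefSeq, build GRCm38.p6, and is read 5′ to 3′ on the strand of its gene (Dis3l2 chr1:86703554-86703853 on the plus strand, Alpi chr1:87101557-87101856 on the minus strand, Akp3 chr1:87124704-87125003 on the plus strand, Ecel1 chr1:87156307-87156606 on the minus strand and Lxn chr3:67463858-67464157 on the minus strand). Capitals mark the only motif found in them, TATAAA on the opposite strand.
Dis3l2: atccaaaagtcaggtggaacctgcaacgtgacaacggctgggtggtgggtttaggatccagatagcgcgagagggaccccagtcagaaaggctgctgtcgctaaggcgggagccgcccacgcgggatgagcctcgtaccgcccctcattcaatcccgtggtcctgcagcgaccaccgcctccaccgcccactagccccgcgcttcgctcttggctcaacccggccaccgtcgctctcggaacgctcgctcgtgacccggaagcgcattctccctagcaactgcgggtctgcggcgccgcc
Alpi: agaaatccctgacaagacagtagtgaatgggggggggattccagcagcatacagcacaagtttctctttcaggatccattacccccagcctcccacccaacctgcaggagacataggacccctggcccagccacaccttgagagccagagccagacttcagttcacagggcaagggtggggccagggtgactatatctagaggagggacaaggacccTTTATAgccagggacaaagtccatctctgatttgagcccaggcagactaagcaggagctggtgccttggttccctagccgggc
Akp3: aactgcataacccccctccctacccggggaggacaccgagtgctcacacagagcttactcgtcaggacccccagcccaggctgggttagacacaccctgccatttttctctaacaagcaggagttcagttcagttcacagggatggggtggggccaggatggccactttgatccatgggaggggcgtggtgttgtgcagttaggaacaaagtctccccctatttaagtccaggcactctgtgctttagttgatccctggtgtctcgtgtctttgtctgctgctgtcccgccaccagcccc
Ecel1: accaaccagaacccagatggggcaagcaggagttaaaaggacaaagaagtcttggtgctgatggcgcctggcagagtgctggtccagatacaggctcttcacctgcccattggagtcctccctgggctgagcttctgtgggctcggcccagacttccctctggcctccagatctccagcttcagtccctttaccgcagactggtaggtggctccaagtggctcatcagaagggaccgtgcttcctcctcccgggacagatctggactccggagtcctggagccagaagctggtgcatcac
Lxn: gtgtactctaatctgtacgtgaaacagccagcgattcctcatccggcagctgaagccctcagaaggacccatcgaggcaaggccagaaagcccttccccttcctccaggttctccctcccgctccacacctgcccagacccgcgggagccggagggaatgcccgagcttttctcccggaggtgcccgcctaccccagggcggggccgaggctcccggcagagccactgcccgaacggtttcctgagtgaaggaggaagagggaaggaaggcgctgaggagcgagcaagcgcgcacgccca

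The motifs searched on both strands were the palindromic oestrogen response element with a 3-base spacer, the TATA box TATAAA, the cAMP response element TGACGTCA and CAAGGTCA, the site of NR5A1. Promoters of 36 of the 46 genes were in the RefSeq table. The oestrogen response element was in 0 of the 36 and in 0.074% of all 27025 genes with a promoter there. TATAAA was in 5 of the 36 (13.9%, against 15.7% of all), in Alpi with its first base 33 bases before the start, and in Mt4, Apoe, Slc45a3 and 4933409F18Rik. CAAGGTCA was in Adamtsl5 alone of the 36 (1.76% of all) and TGACGTCA in none of them (2.03% of all). A motif absent from these letters says nothing about binding elsewhere.

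Lists of genes for testis cell types and for the pathways the drugs act on were then followed, 32 in all. Only 3 lists held a gene that passed. In the macrophage list 1 of 23 tested genes passed, Csf1r, the receptor for macrophage colony-stimulating factor, at 6.72, 7.92 and 8.02 CPM with mother dose 2, against 12.3, 11.1 and 10.98 CPM with mother dose 1. It was 1.52-fold lower (log2 -0.60 ± 0.12, adjusted p = 0.0373 by edgeR), and sons of control parents were higher than either group (13.8 ± 1.22 CPM). The complement genes C1qa, C1qb and C1qc had log2 fold changes of -0.55 ± 0.18, -0.55 ± 0.16 and -0.83 ± 0.23 and did not pass (adjusted p = 0.215, 0.175 and 0.153 by edgeR). The median of the list was -0.44, and -0.35 without mother dose 2 A and mother dose 1 B, and 11 of the 23 genes (47.8%) had all dose 2 libraries below all dose 1 libraries, against 12.9% of all genes. Of the 23 genes 19 had a log2 fold change below 0, and the other 4 were Cd68 (0.07 ± 0.20), Mrc1 (0.03 ± 0.10), H2-Ab1 (0.84) and H2-Eb1. The antigen-presenting genes moved apart from each other, with H2-Aa at -1.96 ± 0.42 and H2-Eb1 at 1.33 ± 0.37, and neither passed (adjusted p = 0.0673 and 0.152 by edgeR). In whole testis, fewer cells of a type and less RNA per cell cannot be told apart.

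In the prostaglandin list, which holds the targets of ibuprofen and diclofenac, 1 of 25 tested genes passed, Cbr2, at 2.88, 2.54 and 2.94 CPM with mother dose 2 and 4.58, 5.80 and 5.05 CPM with mother dose 1. Ptgs1, a cyclooxygenase, stood at 0.366 to 0.641 CPM with mother dose 2 and 0.274 to 0.368 CPM with mother dose 1 and did not pass (log2 0.62 ± 0.38, adjusted p = 0.484 by edgeR). The other cyclooxygenase gene, Ptgs2, and the receptor genes Ptger2, Ptger3 and Ptgfr did not pass the low-count filter and were not tested. Hpgd, which breaks prostaglandins down, and Akr1b3 had non-overlapping libraries but did not pass (log2 -0.53 ± 0.15 and -0.44 ± 0.15, adjusted p = 0.14 and 0.243 by edgeR). The median was -0.30, and it came to -0.20 without mother dose 2 A and mother dose 1 B, to -0.19 without mother dose 2 A and to -0.15 without mother dose 1 B. In the oestrogen response list 0 of 15 tested genes passed, with a median of -0.13. Its members Pgr, Tff1, Ltf, Areg and Gper1 did not pass the low-count filter and were not tested. Aromatase, Cyp19a1, which makes oestrogen, had a log2 fold change of 0.30 ± 0.15 (adjusted p = 0.383 by edgeR).

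In the Leydig cell list, which covers androgen synthesis, 0 of 20 genes passed, with a median of -0.24. Libraries did not overlap in 10 genes that were lower (50%, against 12.9% of all genes) and 1 that was higher (5%, against 12.7%). Star, which brings cholesterol into mitochondria, had 109, 150 and 145 CPM with mother dose 2, against 174, 198 and 173 CPM with mother dose 1 (log2 -0.43 ± 0.11, adjusted p = 0.123 by edgeR). Insl3, a peptide hormone of Leydig cells, had 58.4, 48.6 and 40.1 CPM, against 78.7, 91.7 and 137 CPM with mother dose 1 (log2 -1.06 ± 0.27, adjusted p = 0.138 by edgeR). Cyp17a1, which makes androgen precursors, had 402, 528 and 507 CPM, against 583, 655 and 569 CPM with mother dose 1 (log2 -0.33 ± 0.10, adjusted p = 0.163 by edgeR). Mother dose 2 A was the lowest library for Star and Cyp17a1, and mother dose 1 B the highest. The median of the list was -0.22 without mother dose 2 A, -0.19 without mother dose 1 B and -0.08 without both.

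In the cytosolic ribosomal protein list 0 of 79 genes passed, 43 had all dose 2 libraries below all dose 1 libraries (54.4%, against 12.9% of all genes) and 0 the reverse (12.7% of all genes), and the median was -0.24. Its summed level was 8802, 9394 and 10050 CPM with mother dose 2 and 10510, 12150 and 10420 CPM with mother dose 1, so that dose 2 A was the lowest library and dose 1 B the highest. The median was -0.23 without mother dose 2 A, -0.15 without mother dose 1 B and -0.09 without both. What sets these libraries apart was not tested.

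No gene of the germ cell lists passed. The medians were 0.09 for spermatogonial, 0.10 for meiotic spermatocyte, 0.00 for round spermatid and -0.05 for elongating spermatid genes, and 0 of 18, 27, 23 and 20 genes passed. Among meiotic genes 11 of 27 (40.7%) were higher without overlap, against 12.7% of all genes, and 5 were lower (18.5%, against 12.9%). Among elongating spermatid genes 9 of 20 (45%) were lower and 3 higher (15%), and among round spermatid genes 7 of 23 (30.4%) were lower and 4 higher (17.4%), likewise without overlap. Of the meiotic genes Smc1b, a meiotic cohesin, had 252, 247 and 227 CPM with mother dose 2 and 177, 188 and 177 CPM with mother dose 1 (log2 0.42 ± 0.11, adjusted p = 0.139 by edgeR). The protamine gene Prm1 had 2102, 2225 and 2454 CPM, against 2820, 2874 and 2807 CPM with mother dose 1 (log2 -0.33 ± 0.12, adjusted p = 0.261 by edgeR). Sertoli genes had a median of -0.01, with 0 of 20 passing. Imprinted genes (44 tested) and genes of DNA methylation and demethylation (19 tested) had medians of 0.02 and 0.04, also with 0 passing.

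Tissue next to the testis was checked with its own markers. The summed epididymis list was 199.9 to 225.6 CPM with mother dose 2 and 191 to 199.8 CPM with mother dose 1, of which Cst8 made up 153 to 173 and 143 to 150 CPM, and defining epididymal genes such as Gpx5 and Lcn5 did not pass the low-count filter. Of its 8 tested genes 5 had a log2 fold change above 0 and 3 below. The lowest was Ros1 at -2.77, described at the end, so the sum does not stand for every member. The red blood cell list summed to 17.3 to 19.9 and 17.9 to 22.3 CPM in the same order of groups. The lymphocyte list summed to 16.5, 17.9 and 19.4 CPM with mother dose 2 and 42.7, 22.4 and 43.3 CPM with mother dose 1. In it Crtam, an adhesion molecule of activated lymphocytes, had 2.81, 2.64 and 3.18 CPM with mother dose 2, against 22.9, 2.88 and 25.6 CPM with mother dose 1, where B was at the level of the other group (adjusted p = 0.0828 by edgeR). Cd3d, a subunit of the T cell receptor complex, had 5.11, 5.89 and 6.61 CPM with mother dose 2, against 9.985, 10.43 and 7.93 CPM with mother dose 1. Of the 11 lymphocyte genes tested 0 passed, 6 had a log2 fold change above 0 and 5 below, and the median was 0.06. Only 1 (9.09%) was lower without overlap, against 12.9% of all genes, so this sum does not stand for every member either. A last list of 38 genes had been chosen on these samples, as genes that passed in some cross against control parents, and is no independent evidence. In it Ceacam10 was higher and Akp3 and Alpi were lower, and the other 35 did not pass.

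**Figure D3:**
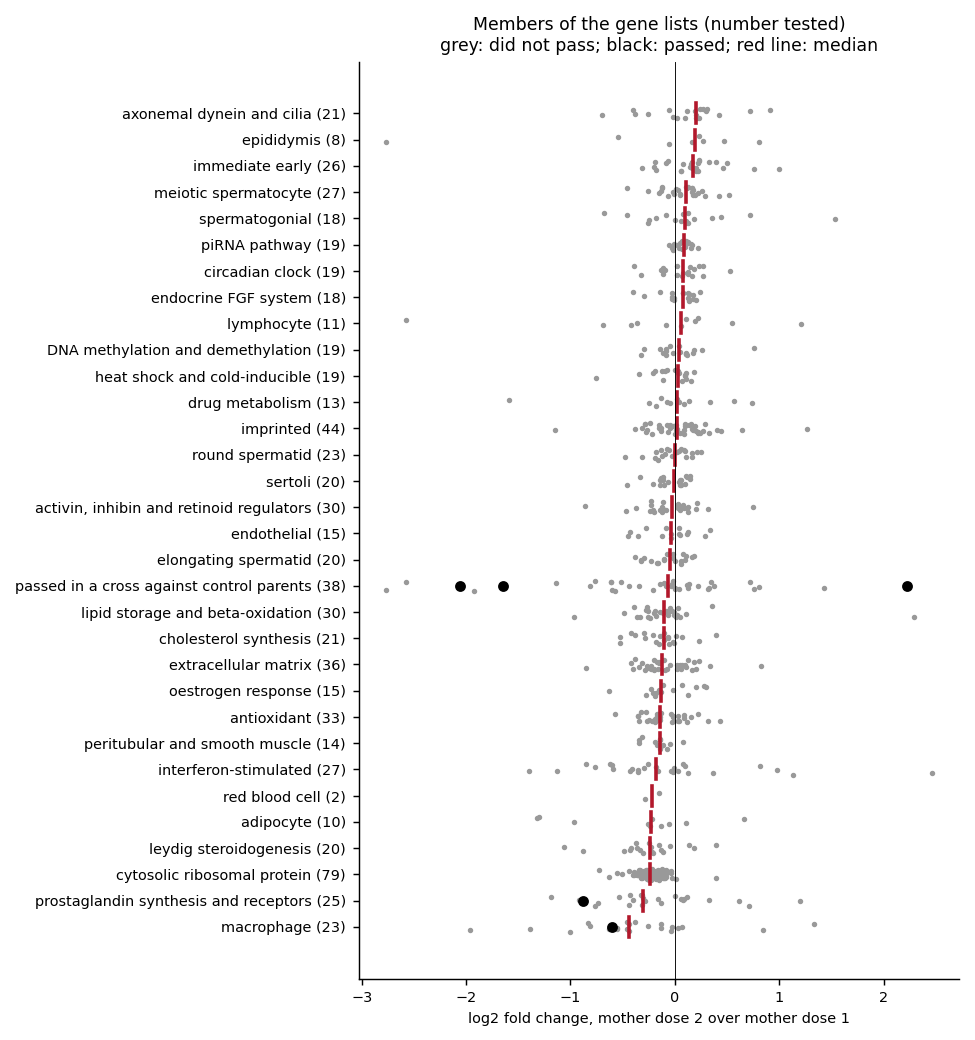
Log2 fold change of mother dose 2 over mother dose 1 (horizontal axis) for every tested member of the 32 lists, with the number tested in brackets. Black points passed, grey points did not and red lines are medians, which run from -0.44 for macrophage genes to 0.20 for axonemal dynein and cilia genes, against 0.01 for all genes.

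Some genes split the libraries of a group, and they are named here after their values were seen. Afm, a vitamin E binding plasma protein, had 0, 8.93 and 8.02 CPM with mother dose 2 and 0 in all libraries of mother dose 1. The peptide transporter gene Tap1 had 2.15, 13.5 and 13.5 CPM with mother dose 2, against 1.41, 1.61 and 2.25 CPM with mother dose 1. Ibsp, a bone matrix protein, had 0.269, 1.00 and 1.23 CPM, against 18.8, 0.509 and 18.99 CPM with mother dose 1. In each of them the library that departs is mother dose 2 A or mother dose 1 B, the libraries that stood apart over all genes, and none of them passed (adjusted p = 0.358, 0.169 and 0.114 by edgeR).

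Some genes that passed with only the 6 libraries and not with all 18 were tight inside both groups and widely spread among sons of control parents, and they too are named after their values were seen. Cwc22, a splicing factor and the gene with the smallest p in the fit of 6, had 15.7, 14.95 and 13.8 CPM with mother dose 2 and 167, 197 and 170 CPM with mother dose 1. Its log2 fold change was -3.59 ± 0.83, and its adjusted p was 2.04e-07 with the 6 libraries and 0.113 with all 18 by edgeR. Sons of control parents had 65.7, 183 and 13.4 CPM of it in A, B and C, so that both levels occurred there. The same holds for a stretch of chromosome 14 in which 10 neighbouring genes, most with predicted names, passed in the fit of 6 and all were higher, among them Gm5930 with 15.3, 13.3 and 15.6 CPM, against 4.33, 3.93 and 3.40 CPM with mother dose 1. Sons of control parents had 7.11, 14.95 and 3.73 CPM of Gm5930. Transcripts of these neighbours and of Cwc22 were not compared with those of other genes, so reads shared between genes were not checked. The stearoyl-CoA desaturase gene Scd1 was of another kind, with 18.9, 24.2 and 18.9 CPM, against 40.6, 35.4 and 41.5 CPM with mother dose 1 and 38.5, 37.7 and 43.4 CPM with control parents (adjusted p = 0.00755 with the 6 libraries and 0.14 with all 18 by edgeR). Genes that passed in the fit of 6 lay near each other more often than other genes did, with 150 of 345 (43.5%) having another within 10 tested genes, against 26% of all.

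**Figure D4:**
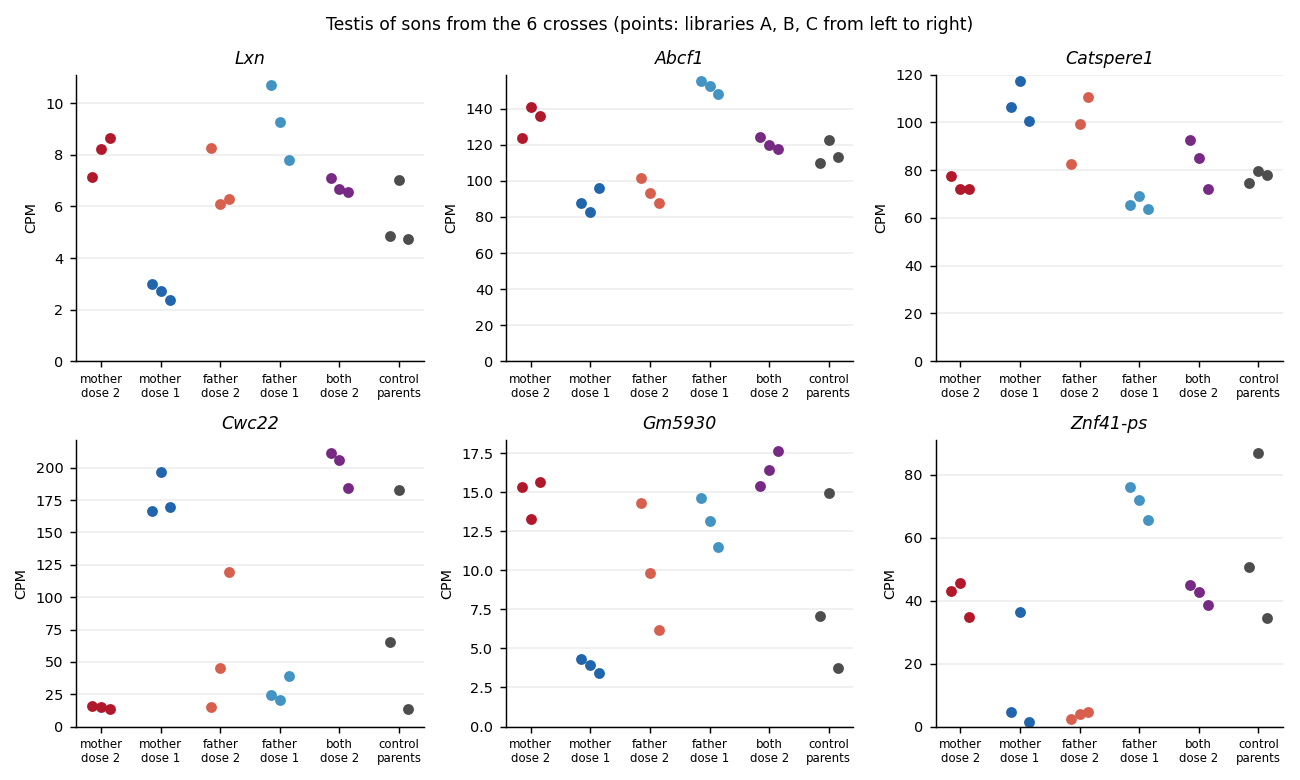
Level in CPM of 6 genes in the testis of sons from the 6 crosses, with libraries A, B and C from left to right in each. Lxn, Abcf1 and Catspere1 are tight in most crosses, while Cwc22, Gm5930 and Znf41-ps take high or low levels within the sons of control parents or of a dose group.

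The same dose step through the father was a separate set of 6 libraries, so the difference of the differences could be tested. Between sons of dose 2 and of dose 1 fathers 321 genes passed (1.67%), 190 higher (0.987%) and 131 lower (0.681%). The father comparison shares no library with the mother comparison. Of the 46 genes 25 had the same sign there, and 10 passed, 5 with the same and 5 with the opposite sign. The 46 were chosen on the mother step, which is part of the difference between the steps. How many of them pass for it is thus no independent evidence. The difference between the dose steps of the mother and of the father passed for 124 of 19241 genes (0.644%), 51 higher (0.265%) and 73 lower (0.379%), and for 19 of the 46. Leaving out libraries moved that count to 62 and 81 for mother dose 1 A and C, to 73 without mother dose 2 B, 57 and 68 without father dose 1 B and C, 51 and 78 without father dose 2 B and C, and 223 without mother dose 2 A and mother dose 1 B. The father count was 196 without father dose 1 A, 83 without B and 92 without C, and it was 101 and 76 without A and B of father dose 2.

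Abcf1 had opposite dose steps through the 2 parents. Sons of dose 2 fathers had 102, 93.1 and 87.5 CPM, against 155, 153 and 148 CPM in sons of dose 1 fathers. The mother step was thus log2 0.59 ± 0.07 and the father step -0.69 ± 0.07, and they differed by 1.28 ± 0.10 (adjusted p = 3.83e-06 by edgeR). Lims2 (0.65 ± 0.12 through the mother, -1.04 ± 0.12 through the father) and Ccr4 (2.19-fold higher through the mother, -1.35 ± 0.23 on the log2 scale through the father) also stepped in opposite directions, with the difference passing for each (adjusted p = 3.28e-05 and 0.00073 by edgeR). Prss45 (-0.64 ± 0.13 and 0.88 ± 0.13) and Catspere1 (-0.55 ± 0.10 and 0.56 ± 0.10) did so the other way round (adjusted p = 0.000403 and 0.000515 by edgeR). In Lxn the father step was -0.43 ± 0.16 and did not pass by itself (adjusted p = 0.189 by edgeR), and the difference of 2.00 ± 0.24 passed (adjusted p = 0.000318 by edgeR).

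Ccdc42os, Carmil1, Slc45a3 and Ceacam10 stepped the same way through both parents. Ccdc42os was -1.57 ± 0.24 through the mother and -1.66 ± 0.25 through the father. Carmil1 was 0.65 ± 0.13 and 0.69 ± 0.13, and Slc45a3 -0.88 ± 0.16 and -0.75 ± 0.16. The differences between the steps of these genes were 0.09 ± 0.35, -0.03 ± 0.18 and -0.12 ± 0.22 (SE), which leaves room for a moderate difference either way. Ceacam10 was 2.23 ± 0.36 and 1.67 ± 0.40, a difference of 0.56 ± 0.54 that did not pass (adjusted p = 0.819 by edgeR). Sons whose parents both had dose 2 averaged only 0.574 CPM of Ceacam10, against 3.42 CPM with mother dose 2 and 0.727 CPM with mother dose 1. They averaged 0.905, 74.1 and 6.93 CPM of Ccdc42os, Carmil1 and Slc45a3, nearer to mother dose 2 than to mother dose 1.

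**Figure D5:**
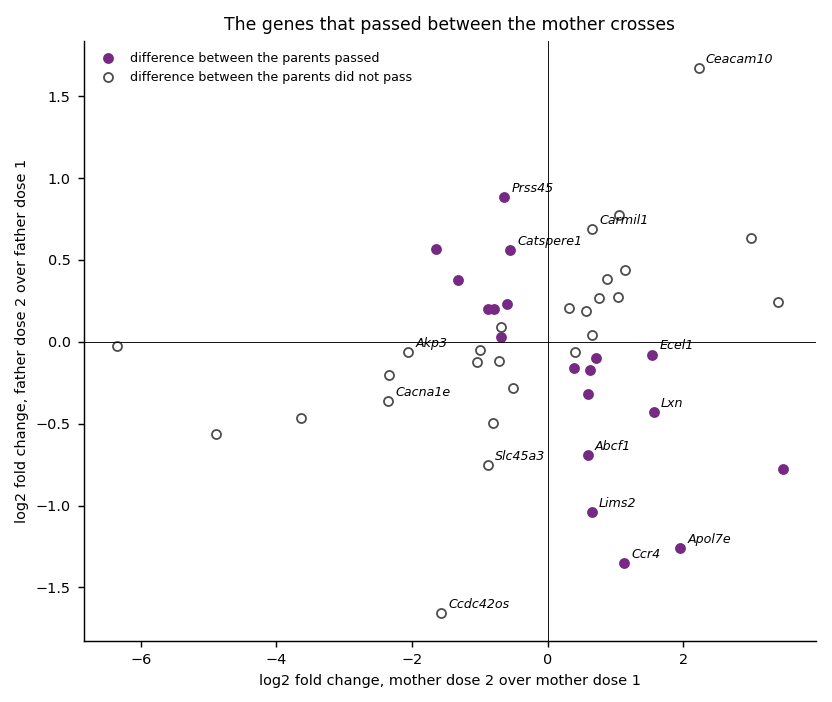
Log2 fold change of dose 2 over dose 1 through the mother (horizontal axis) against that through the father (vertical axis) for the 46 genes that passed between the mother crosses. Filled points are the 19 genes for which the difference between the steps passed, and Abcf1, Lims2, Ccr4, Prss45 and Catspere1 lie in the quadrants of opposite sign.

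The genes with the largest difference between the steps were mostly changed in the father crosses. Mrs2, a mitochondrial magnesium channel, had 52.2, 52.2 and 46.7 CPM with mother dose 2 and 46.3, 46.1 and 45.2 CPM with mother dose 1. With father dose 2 it had 51.8, 39.3 and 31.8 CPM, against 3.78, 4.65 and 8.09 CPM with father dose 1. The zinc finger genes Zfp981, Zfp991, Zfp992 and Zfp990 and the related pseudogene Znf41-ps, all on chromosome 4, also stood out. Znf41-ps had 43.1, 45.5 and 34.9 CPM with mother dose 2 and 4.47, 36.4 and 1.54 CPM with mother dose 1, with B apart from A and C. It did not pass between the mother crosses (log2 1.54 ± 0.74, adjusted p = 0.39 by edgeR). Star, by contrast, did not pass between the mother crosses but differed between the steps, at -0.43 ± 0.11 through the mother and 0.54 ± 0.11 through the father (adjusted p = 0.00669 for the difference by edgeR).

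Daughters from the same crosses were sampled at 8 weeks, against 10 weeks for sons. Their ovaries showed 0 of 17454 genes passing by edgeR, with 1486 genes at an unadjusted p under 0.05 and 85 genes passing by DESeq2. Without ovary mother dose 1 A, 62 genes passed by edgeR. Of the 46 testis genes 33 were tested in ovary, and 16 had the same sign there. Lxn had 17.4, 19.3 and 16.9 CPM in ovaries with mother dose 2 and 17.1, 15.1 and 21.6 CPM with mother dose 1 (log2 -0.01 ± 0.16). Unadjusted p was under 0.05 in ovary for Uck2, Dhx40, Lims2 and Slc45a3, of which only Dhx40 had the sign it had in testis. The difference between the tissues was not tested.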

How the data were processed

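Messenger RNA was extracted with TRIZOL and sequenced at 100 nt after a stranded mRNA ligation kit, per the labels' protocols. The authors deposited raw counts per gene, 1 table of 26264 entries per tissue, and the submitters' processing notes name featureCounts 2.0.3 as counter, TopHat2 2.1.1 and Bowtie2 2.4.5 among aligners, SAMtools 1.13, FastQC 1.19, bcl2fastq 2.20, DESeq2 1.32.0 and the build mm39. Strand setting and annotation: not given in the sources used here. Of the entries 133 have no gene ID (0.337 to 0.35% of counts in the 6 libraries); they were kept. Cross names were read with the male first, as the sample titles give them.

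The test was edgeR 4.0.16 under R 4.3.3, with limma 3.58.1: TMM factors, a minimum count of 10, robust quasi-likelihood, Benjamini-Hochberg adjustment, threshold 0.05. All 18 F2 testis libraries entered the fit; the other 12 only share the estimate of the spread. CPM are scaled by TMM, and a log2 fold change is dose 2 over dose 1. No replicates agreed within sampling noise, so all were counted. Alternatives were DESeq2 1.42.0, other size factors, no filter, a replicate block, other libraries and each library left out. The steps were tested on simulated counts.

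Members, lists and the naming rule were chosen with earlier results of these data known. Genes named passed, had a mean of at least 1 CPM, no predicted symbol and groups without overlap, the 15 largest changes each way; up to 4 members with the smallest p of a list and 5 each way for the difference between parents; others are named beside these for their level, position or lists. Transcripts were compared with blastn 2.17.0 in GENCODE M21 (98% identity over 100 bases), where 45 of the 46 genes were found. Gene order came from a RefSeq table of GRCm38.p6, which matched 26083 of 26131 IDs; its coordinates are not used with mm39.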

Additional observations from a re-analysis of the deposited data

Results flagged for a closer look

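For 24 of the genes named, the step between dose 2 and dose 1 differed between the mother crosses and the father crosses, tested as the difference of the 2 steps by edgeR with Benjamini-Hochberg adjustment over all genes. Genes that passed between the mother crosses were chosen for their mother step, which is part of this difference. Passing here is thus no independent evidence for them. Each value here is the mother step minus the father step on the log2 scale. Among the picked genes that passed between the mother crosses and were higher with dose 2, it was 2.00 for Lxn, 1.62 for Ecel1, 2.48 for Ccr4, 0.81 for Uck2, 1.69 for Lims2, 0.80 for Nt5dc3, 0.92 for Zfp944 and 1.28 for Abcf1. Among those that were lower it was -1.08 for Cbr2, -0.99 for Cstb, -0.72 for Igfbp7, -1.52 for Prss45, -0.83 for Csf1r and -1.11 for Catspere1. The difference also passed for Apol7e, LOC118027456, Dhx40, 4931440P22Rik and Alpi, which the rule did not pick. With them it passed for 19 of the 46 genes. It passed as well for Star, which did not pass between the mother crosses.

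The other 10 genes picked by the rule did not pass between the mother crosses and are named because they passed this same test. The difference was 6.71 for Mog, a myelin glycoprotein, 5.81 for Znf41-ps, 5.72 for Zfp981, 5.55 for Zfp991 and 3.63 for Zfp992. It was -8.71 for a (nonagouti, the agouti coat colour gene), -5.22 for Zfp990, -2.91 for the protocadherin gene Pcdh9, -2.78 for Mrs2 and -1.96 for Ahcy, which breaks down S-adenosylhomocysteine and neighbours nonagouti. The values for Mog and nonagouti rest on libraries at or near 0 CPM and depend on the prior count of the fit. Nonagouti had 0, 0.740 and 1.11 CPM with mother dose 2 and 1.92, 1.78 and 1.18 CPM with mother dose 1, and 0.970, 2.38 and 2.52 CPM with father dose 2 and 0.0247, 0 and 0 CPM with father dose 1.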

How the results depend on the processing

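The 46 genes that passed kept their sign in every setting that gave them a value. Their groups did not overlap, so these settings could hardly reverse a sign. RLE size factors (46 genes), no low-count filter (58), no control-parent libraries (65) and all 27 testis libraries (38) gave counts within 1.5 times of 46, and of the 46 genes 46, 45, 40 and 27 passed in these settings. DESeq2 gave 265 (113 higher, 152 lower) and the fit of only the 6 libraries 346, and leaving out 1 library gave 9 to 98. Without mother dose 2 A and mother dose 1 B together it was 159. For the difference between mother and father steps (124) the counts were 328 by DESeq2, 73 with all 27 libraries, 200 with only the 12 libraries compared, 223 without both of those libraries and 51 to 178 with 1 library left out. For the father step (321) they were 707 by DESeq2, 878 with only its 6 libraries and 76 to 347 with 1 left out. For ovary (0) they were 85 by DESeq2 and 0 to 62 with 1 left out. The cause of these shifts was not tested. With the replicate letter as a block the counts were 65, 148, 342 and 0. Same-letter libraries did not deviate together (correlations of deviations 0.016, 0.036 and -0.048 for A, B and C), so the letters were not taken as pairs. Depth limits genes under about 1 CPM, and the low-level calls rest on few reads.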

Other observations

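The lists not described so far held no gene that passed by edgeR. Immediate early genes had a median log2 fold change of 0.18 (26 tested), and 7 of them (26.9%) were higher without overlap, against 12.7% of all genes. Egr1 stood at 4.89, 5.36 and 4.66 CPM with mother dose 2 and 2.94, 2.52 and 3.35 CPM with mother dose 1 (log2 0.76 ± 0.29, adjusted p = 0.291 by edgeR). Both groups lay below sons of control parents (mean 11.9 CPM). Circadian clock genes had a median of 0.08 (19 tested), with the clock repressor gene Cry2 at 34.4, 33.3 and 32.3 CPM, against 26.2, 27.4 and 29.2 CPM with mother dose 1 (log2 0.27 ± 0.08, adjusted p = 0.146 by edgeR). Genes of the piRNA pathway, which silences transposons in germ cells, had a median of 0.09, and 6 of 19 (31.6%) were higher without overlap, against 12.7% of all genes. Cholesterol synthesis genes had a median of -0.11, and 7 of 21 (33.3%) were lower without overlap, against 12.9% of all genes. Medians were -0.23 for adipocyte, -0.18 for interferon-stimulated and -0.14 for antioxidant genes, against 0.01 for all genes. Of their members 1 of 10, 2 of 27 and 7 of 33 (10%, 7.41% and 21.2%) were lower without overlap, against 12.9% of all genes.

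Ros1, a receptor tyrosine kinase of the epididymal epithelium, stood at 0.0489, 1.00 and 0.863 CPM with mother dose 2 and 4.84, 2.66 and 5.49 CPM with mother dose 1. It missed the threshold (log2 -2.77 ± 0.55, adjusted p = 0.0579 by edgeR).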
